A study of Mus musculus with 8 samples.

Results

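The collagen chains of the mouse lung were examined across PBS-treated mice and a COPD mice model, with and without the herbal medicine TJ-41. Members were all protein-coding genes of a GRCm38 annotation whose symbol was Col, a number, the letter a and a number, which gave 44 chains of 27 collagen types among the 52636 genes in the files. By textbook class, 11 chains were fibrillar, 8 belonged to basement membranes and 25 were neither. All animals were male C57BL/6 mice of wild type genotype. Their lung RNA gave 8 sequencing libraries from 4 groups, with 2 libraries per group. The control diet or a diet with 2% TJ-41 (Hochuekkito) began at 8 weeks of age. For the COPD mice model, porcine pancreatic elastase (PPE) was given into the trachea at 10 weeks and lipopolysaccharide (LPS) from 12 weeks, and control mice were given phosphate-buffered saline (PBS) instead. The 4 groups are called PBS control-diet, PBS TJ-41, COPD control-diet and COPD TJ-41. Elastase injury with LPS is a model of emphysema with inflammation and involves no smoke. The day of RNA collection was not given in the sources used here, nor was it stated whether each library came from 1 mouse, so the spread between replicates may be partly technical.

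Collagens are mostly secreted proteins of 3 chains wound into a triple helix. Fibrillar collagens (types I, III and V in most organs) build the tensile fibers of vessel walls, airways and alveolar septa. Type IV collagen forms the sheet under epithelium and endothelium, and the alveolar wall holds both the general network of the α1 and α2 chains and the specialized network of the α3, α4 and α5 chains. Most of the remaining types sit on fibrils, form beaded filaments or span the cell membrane. Fibroblasts make most of the fibrillar chains, while epithelial and endothelial cells also make type IV chains. The trimers are assembled before secretion, so chains of 1 trimer are needed together.

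Some of these partner chains are encoded head to head, and their start regions are shown because the levels of such pairs are compared later. Col4a1 (chromosome 8, 11198423 to 11312826, minus strand) and Col4a2 (11312805 to 11449287, plus strand) have start sites 21 bases apart, and their first exons overlap by 22 bases. Col4a3 and Col4a4 on chromosome 1 start 72 bases apart in opposite directions. The overlap of the first pair, the bases between the second pair, and the 250 bases before the starts of Col5a1 and Col5a3, 2 type V chains whose ratios to their partner Col5a2 are given later, read 5′ to 3′ as follows, with capitals for the CCAAT box (spelled as named), for GGGCGG of the GC box and for TATAAA of the TATA box, each on either strand.
Col4a2 and Col4a1, chr8:11312805-11312826, plus strand: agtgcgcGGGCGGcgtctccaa
Col4a4 and Col4a3, chr1:82586850-82586920, minus strand: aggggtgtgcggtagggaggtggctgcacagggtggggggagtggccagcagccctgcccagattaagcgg
Col5a1, chr2:27886175-27886424, plus strand: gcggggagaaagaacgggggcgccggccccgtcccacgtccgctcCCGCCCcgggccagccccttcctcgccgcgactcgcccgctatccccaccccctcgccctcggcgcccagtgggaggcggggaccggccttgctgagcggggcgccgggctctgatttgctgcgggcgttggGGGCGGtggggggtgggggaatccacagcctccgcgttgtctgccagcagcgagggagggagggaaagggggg
Col5a3, chr9:20815068-20815317, minus strand: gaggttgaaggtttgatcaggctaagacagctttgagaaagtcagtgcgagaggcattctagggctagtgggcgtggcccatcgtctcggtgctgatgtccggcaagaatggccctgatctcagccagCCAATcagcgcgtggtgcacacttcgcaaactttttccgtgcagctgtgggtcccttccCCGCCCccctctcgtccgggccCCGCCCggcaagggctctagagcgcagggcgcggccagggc
These sequences are from RefSeq on GRCm38.p6. The Col4a2 and Col4a1 overlap held 1 GC box, the gap between Col4a4 and Col4a3 held none of the 3 motifs, Col5a1 had 2 GC boxes, and Col5a3 had 2 GC boxes and 1 CCAAT box. Windows of 300 bases around the start (250 before, 50 after) were available for 35 of the 44 members, of which 13 held a CCAAT box, 22 a GC box and 5 a TATA box. A member was counted if any of its windows held the motif. Over all 32851 windows of that length, each counted singly, the shares with these motifs were 37.4%, 35.7% and 13.6%. A gene with several windows has more chances to be counted, so these shares are not a like measure for the members.

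The libraries held 18767295 to 20888042 counts, and levels are given as CPM (counts scaled to the library total and its TMM factor). Values listed in runs of 4 pairs are replicates 1 and 2 of the PBS control-diet, PBS TJ-41, COPD control-diet and COPD TJ-41 groups, in that order. The replicates of the COPD control-diet group were furthest apart, with a log2 spread over genes of 0.798 (SD) against 0.394 to 0.469 in the other groups. Fibroblast marker genes summed to 3330 to 3660 CPM in control mice and 3140 to 4260 CPM in the COPD mice model, overlapping. Macrophage markers summed to 906 to 1070 CPM in control mice and to 1270 to 1920 CPM in the COPD mice model. Of these 12 markers, 8 had a positive and 4 a negative log2 fold change over both diets. Chil3, a large part of the sum, ranged from 371 to 475 CPM in control mice and from 624 to 1390 CPM in the COPD mice model. Siglecf went the other way, from 12.1 to 21.7 CPM against 2.87 to 9.24 CPM. Among the genes of all pathway and marker lists, only the plasma cell gene Jchain was called in the COPD comparison over both diets, at 43.3 to 201 CPM in control mice and 313 to 894 CPM in the COPD mice model. The 11 cartilage markers summed to 27.1 to 50.3 CPM per library; 5 of them (Acan, Matn1, Cnmd, Snorc and Ucma) had at most 3 counts in every library, whereas Chad was at 10.2 to 29.7 CPM and Cytl1 at 8.18 to 19.1 CPM. In whole lung, fewer cells of a type and less RNA per cell cannot be told apart.

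Collagen chains took 0.317% to 0.633% of all counts in a library. The summed level of the 44 chains was 3697 and 6293, 4669 and 4909, 3100 and 5414, and 4538 and 4650 CPM. Replicate 2 was thus 1.70 times replicate 1 in the PBS control-diet group and 1.75 times in the COPD control-diet group, whereas the replicates on the TJ-41 diet differed by 1.05 and 1.02 times. No group stood apart from the others, because the 2 control-diet groups each spanned the values of both TJ-41 groups.

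Fibrillar chains summed to 1303 and 2454, 1644 and 1763, 975 and 2443, and 1602 and 1700 CPM. Basement membrane chains summed to 1509 and 2353, 1840 and 1930, 1351 and 1828, and 1918 and 1880 CPM. The remaining 25 chains came to 885 and 1486, 1186 and 1215, 774 and 1143, and 1019 and 1069 CPM. Basement membrane and fibrillar chains thus made up nearly equal shares of collagen RNA, 39.2% and 37.3%. The 4 transmembrane chains (Col13a1, Col17a1, Col23a1 and Col25a1) were the one subclass whose sum did not overlap between the conditions. It was at 147 and 169, 165 and 158 CPM in control mice and 124 and 120, 142 and 134 CPM in the COPD mice model. Most of this sum was Col23a1 (78.3 to 110.0 CPM), which overlapped on its own, whereas Col13a1 and Col17a1 did not. This subclass is named because its sum did not overlap, and no background over all genes was formed for such sums.

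**Figure D1:**
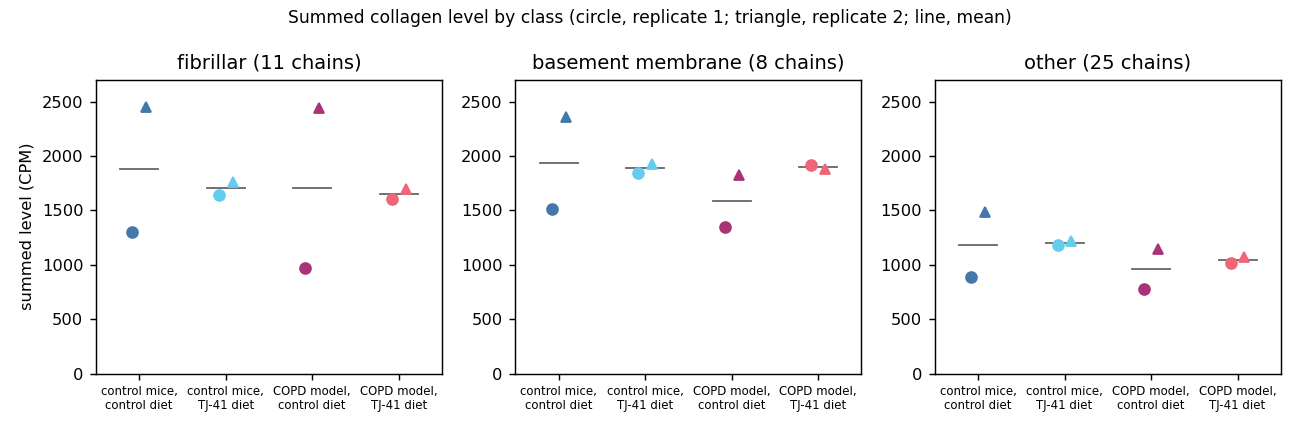
Summed collagen level in CPM (y axis) in each library of the 4 groups (x axis), for fibrillar, basement membrane and other chains. Circles are replicate 1, triangles replicate 2 and lines the mean of both; the control-diet replicates are wide apart in every class, for example 975 and 2443 CPM for the fibrillar chains of the COPD mice model.

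The gap between replicates was shared by most chains. In the PBS control-diet group, 34 of the 36 chains with enough counts for a test were higher in replicate 2, with a median log2 difference of 0.67. In the COPD control-diet group 24 of 36 were higher in replicate 2, with a median of 0.47 and a range of -1.08 to 2.03. On the TJ-41 diet the medians were 0.01 in PBS mice and 0.05 in COPD mice. These chains are long and rich in GC, with a median exon length of 7542 bases and 55.9% GC against 3365 bases and 49.2% for all genes tested. Over all genes, the replicate difference in the COPD control-diet group had a Spearman correlation of 0.52 with GC content, and one of -0.229 with length. In the PBS control-diet group these were 0.0135 with GC content and 0.342 with length. On the TJ-41 diet, where the collagen medians were near 0, they were -0.365 and 0.18 in PBS mice and -0.14 and -0.0114 in COPD mice. After a correction of each library for length and GC, the median collagen gap was 0.47 in the PBS group and 0.17 in the COPD group, both of the control diet.

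A few chains made up most of the collagen RNA. The 5 with the highest levels (Col3a1, Col4a1, Col1a2, Col4a2 and Col1a1) held 56.5% of the summed collagen CPM and the top 10 held 80.9%. Per kilobase of exon, Col4a1 was highest with a mean of 90.4 CPM per kb over the 8 libraries. Exon length here merges all annotated transcripts of a gene, and the order depends on it. Col3a1 followed with 70.6, Col4a2 with 70.1 and Col6a1 with 57.6. Type I collagen came next, at 44.5 CPM per kb for Col1a1 and 40.8 for Col1a2. Col4a3 (26.6), Col6a2 (22.5), Col6a3 (19.4) and Col4a4 (18.8) completed the 10 highest. Neighbors in this order differed by a smaller factor than each varied over the libraries, which ran from 1.68-fold for Col4a4 to 3.07-fold for Col1a1.

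**Figure D2:**
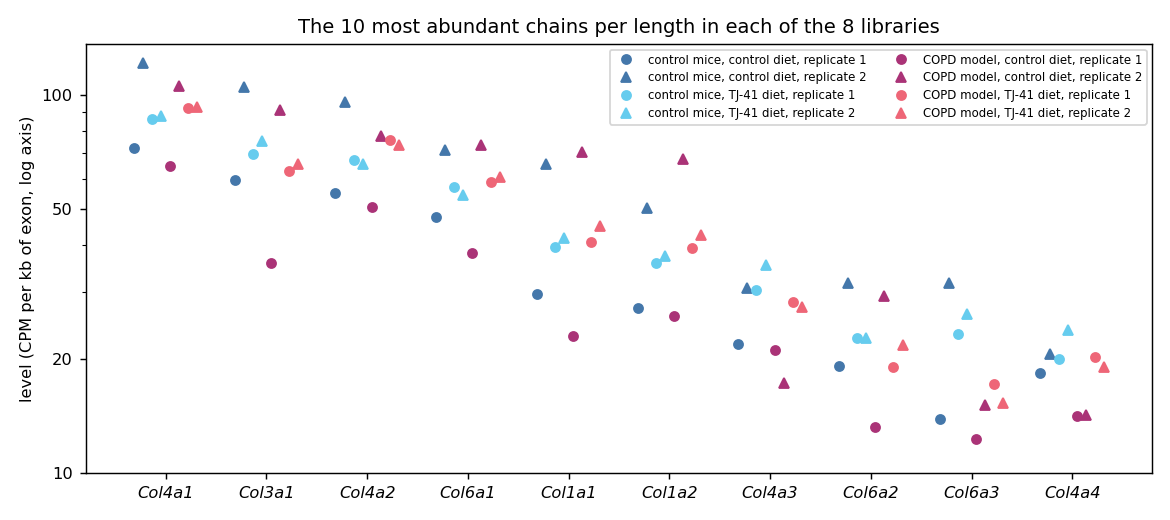
Level in CPM per kb of exon (y axis, logarithmic) of the 10 most abundant collagen chains (x axis) in each library. Colors mark the 4 groups, circles replicate 1 and triangles replicate 2; the libraries of the control and COPD mice interleave in most of these chains, and Col4a1 leads with a mean of 90.4 CPM per kb.

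Col3a1, the single chain of type III collagen found in elastic and vascular tissue, was at 584 and 1030, 683 and 740, 352 and 893, and 617 and 644 CPM. Col1a1 was at 195 and 431, 259 and 275, 151 and 463, and 268 and 296 CPM. Its partner Col1a2 was at 340.1 and 622, 445 and 466, 323 and 842, and 489.8 and 528 CPM. Low and high extremes of all 3 genes fell within the control-diet groups, and control and COPD values overlapped.

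At the other end, 8 chains had too few counts for a test. Col9a1, a chain of cartilage type IX collagen, had 0 counts in every library, which allows a level of at most 0.153 to 0.162 CPM per library at 3 counts. Col2a1, the main chain of cartilage collagen, had 0 to 5 counts per library, Col9a2 and Col10a1 (the latter of growth plate cartilage) 0 to 2, Col11a1 0 to 5, Col19a1 0 to 6, Col25a1 2 to 7 and Col22a1 2 to 15. These 8 chains stood at or near the limit of counting.

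The comparison of the COPD mice model with control mice asks which chains changed with PPE and LPS. Over both diets (4 libraries against 4), Col24a1 was higher and Col5a3 and Col17a1 were lower by more than 1 on the log2 scale, and none of these differences passed the threshold. No collagen chain was called at a false discovery rate under 0.05 with a log2 fold change beyond 1, while 91 of 20546 genes tested, or 0.443%, were. At an unadjusted p under 0.05 there were 11 chains of the 36, 10 lower and 1 higher, against a background of 10.4% of all genes, 4.21% lower and 6.18% higher. The median log2 fold change of the 36 was -0.20, with -0.0017 over all genes tested. Without replicate 2 of the PBS control-diet group the median was 0.00085, and without replicate 1 of that group it was -0.34.

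Among the 8 basement membrane chains, 4 had an unadjusted p under 0.05, all lower (background 4.21% lower). Col4a1 (log2 fold change -0.05, SE 0.20) and Col4a2 (-0.03, SE 0.20), which form the general network, and the multiplexins Col15a1 (-0.07, SE 0.30) and Col18a1 (0.03, SE 0.21), which lie along basement membranes, were close to 0. The other 4 type IV chains, Col4a3 (-0.35, SE 0.15), Col4a4 (-0.31, SE 0.12), Col4a5 (-0.33, SE 0.13) and Col4a6 (-0.31, SE 0.14), had unadjusted p-values of 0.0267 to 0.0476 and adjusted p-values of 0.395 to 0.474 in edgeR's quasi-likelihood test.

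Col4a3 was at 219 and 307, 304 and 353, 211 and 172, and 283 and 273 CPM, and Col4a4 at 195 and 219, 212 and 253, 150.0 and 151, and 214 and 202 CPM. Col4a5 stood at 110.0 and 147, 119.8 and 129, 93.3 and 76.4, and 124 and 115 CPM, and Col4a6 at 26.2 and 35.8, 33.3 and 31.9, 24.8 and 23.5, and 25.8 and 28.6 CPM. In all 4 of these chains the lowest 2 values belonged to the COPD control-diet group, and the COPD TJ-41 group overlapped with control mice. Col4a1 was at 539 and 907, 644 and 657, 484 and 789, and 688 and 691 CPM, and Col4a2 at 364 and 634, 446 and 433, 333 and 516, and 501 and 487 CPM. The conditions overlapped in both chains, with the lowest value in a COPD library and the highest in a control library.

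Of the 9 tested fibrillar chains, 2 were lower and 1 was higher at an unadjusted p under 0.05 (background 4.21% and 6.18%), and both lower ones belong to type V. Col5a3, the least common type V chain, was at 7.79 and 19.8, 13.6 and 12.3, 3.70 and 5.79, and 5.63 and 5.21 CPM. Every library of the COPD mice model was below every control library. The log2 fold change was -1.40 (SE 0.29, edgeR adjusted p = 0.0988). Col5a1, which is part of nearly all type V trimers and helps to start fibrils, was at 57.8 and 122, 77.8 and 88.8, 39.4 and 66.1, and 60.6 and 55.2 CPM, with a log2 fold change of -0.65 (SE 0.24, edgeR adjusted p = 0.388), and its groups overlapped. Col5a2 was at 90.9 and 194, 134 and 151, 85.4 and 142, and 129 and 146 CPM, with -0.19 (SE 0.24).

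Col24a1 (chromosome 3, 145292472 to 145552011), a minor fibrillar chain known from bone, was rare throughout. It was at 0.366 and 0.311, 0.563 and 0.486, 1.35 and 1.33, and 1.09 and 1.94 CPM, that is 6 to 11 counts in control libraries and 21 to 38 in libraries of the COPD mice model. All 4 libraries of the COPD mice model were above all 4 of control mice. The log2 fold change was 1.74 (SE 0.33, edgeR adjusted p = 0.0665). This gene reached the count filter through the COPD libraries, where it is high, so its presence among tested chains is tied to that difference.

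The other fibrillar chains had smaller differences. Log2 fold changes were 0.22 (SE 0.29) for Col1a2, 0.02 (SE 0.34) for Col1a1, -0.28 (SE 0.28) for Col3a1, -0.22 (SE 0.18) for Col27a1 and -0.41 (SE 0.22) for Col11a2. None of these 5 had an unadjusted p under 0.05.

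Of the 19 tested chains that were neither fibrillar nor of basement membranes, 4 were lower at an unadjusted p under 0.05 and none was higher (background 4.21% and 6.18%). Col17a1 (chromosome 19, 47646344 to 47692094), a transmembrane collagen of the hemidesmosomes that anchor epithelial cells, was at 7.21 and 8.45, 7.47 and 4.59, 3.39 and 2.71, and 3.54 and 3.58 CPM. Each of the 4 COPD libraries was below the lowest control library, and the log2 fold change was -1.06 (SE 0.22, edgeR adjusted p = 0.0901). Col13a1, a transmembrane collagen at cell adhesion sites, was at 54.8 and 54.9, 47.6 and 51.4, 29.7 and 38.5, and 47.2 and 40.6 CPM. Its groups also did not overlap, by a narrow margin of 47.6 against 47.2 CPM, with a log2 fold change of -0.43 (SE 0.13, edgeR adjusted p = 0.245). Airway epithelium markers summed to 18200 to 21900 CPM in control mice and 12400 to 29900 CPM in the COPD mice model, and alveolar type I markers to 6160 to 6480 and 5550 to 7860 CPM, and their part in these values was not tested.

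Chains that coat fibrils or form filaments were next. Col12a1, which lies on the surface of type I fibrils, was at 72.2 and 127, 107 and 113, 68.4 and 47.4, and 62.8 and 78.1 CPM, with a log2 fold change of -0.71 (SE 0.20, edgeR adjusted p = 0.216). Col14a1, a related chain, had 0.02 (SE 0.23). Col6a3, the long chain of the type VI beaded filament, was at 166 and 381, 279 and 314, 147 and 181, and 206 and 183 CPM, with -0.67 (SE 0.23, edgeR adjusted p = 0.344). The trimer partners Col6a1 (0.01, SE 0.21) and Col6a2 (-0.21, SE 0.25) were nearer to 0. Col6a1 was at 208 and 312, 249.6 and 238, 167 and 322, and 258 and 265 CPM, and Col6a2 at 159 and 264, 189 and 189, 109.8 and 244, and 158 and 181 CPM.

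The largest positive value in this class was that of Col28a1, a chain found around peripheral nerves, at 2.56 and 6.85, 4.81 and 7.13, 2.55 and 11.98, and 10.9 and 15.2 CPM. Replicate 1 of the COPD control-diet group was as low as the lowest control library and the other 3 COPD libraries were above all controls, and the log2 fold change was 0.88 (SE 0.46, edgeR adjusted p = 0.552). Schwann cell markers overlapped, at 256 to 335 CPM in control mice and 244 to 289 CPM in the COPD mice model. Col8a1, a short-chain collagen of vessel walls, was at 15.9 and 21.9, 19.9 and 17.2, 21.1 and 32.4, and 22.8 and 21.9 CPM, with 0.39 (SE 0.18, edgeR adjusted p = 0.497). Col8a2 was at 15.2 and 18.1, 17.9 and 19.1, 14.9 and 21.6, and 17.4 and 19.4 CPM, with 0.06 (SE 0.16).

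The other tested chains of this class had no unadjusted p under 0.05. Col23a1, a transmembrane chain, ranged from 78.3 to 110.0 CPM with a log2 fold change of -0.20 (SE 0.12), and the fibril-associated Col16a1 from 24.95 to 49.7 CPM with 0.05 (SE 0.21). Col7a1, which forms the anchoring fibrils under epithelium, ranged from 10.1 to 15.5 CPM with -0.18 (SE 0.19). Col20a1 ranged from 3.65 to 6.43 CPM with -0.34 (SE 0.18), and 79 bases of its exons are shared with BX649560.1 on the same strand. The type VI chains Col6a5 (-0.60, SE 0.30) and Col6a6 (-0.47, SE 0.37) had 9 to 47 counts per library.

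**Figure D3:**
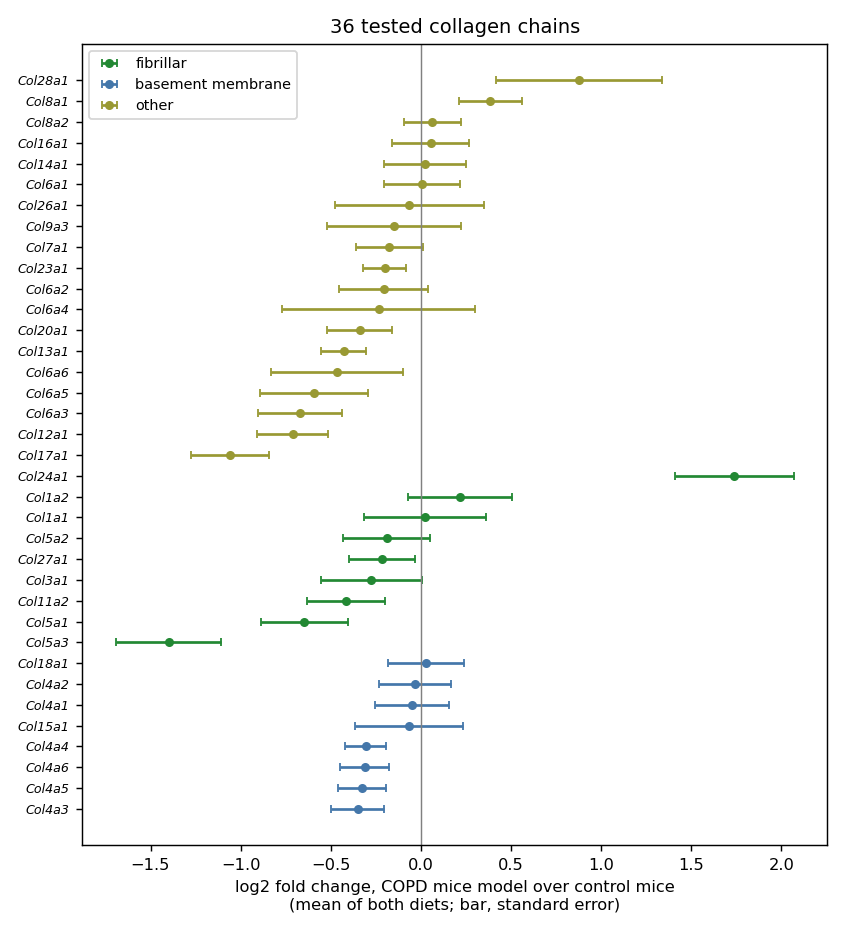
Log2 fold change of the COPD mice model over control mice, mean of both diets (x axis), for the 36 tested collagen chains (y axis), colored by class. Bars are the standard error; Col24a1 (1.74) lies furthest right, and Col5a3 (-1.40) and Col17a1 (-1.06) furthest left, while 26 of 36 chains are below 0.

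**Figure D4:**
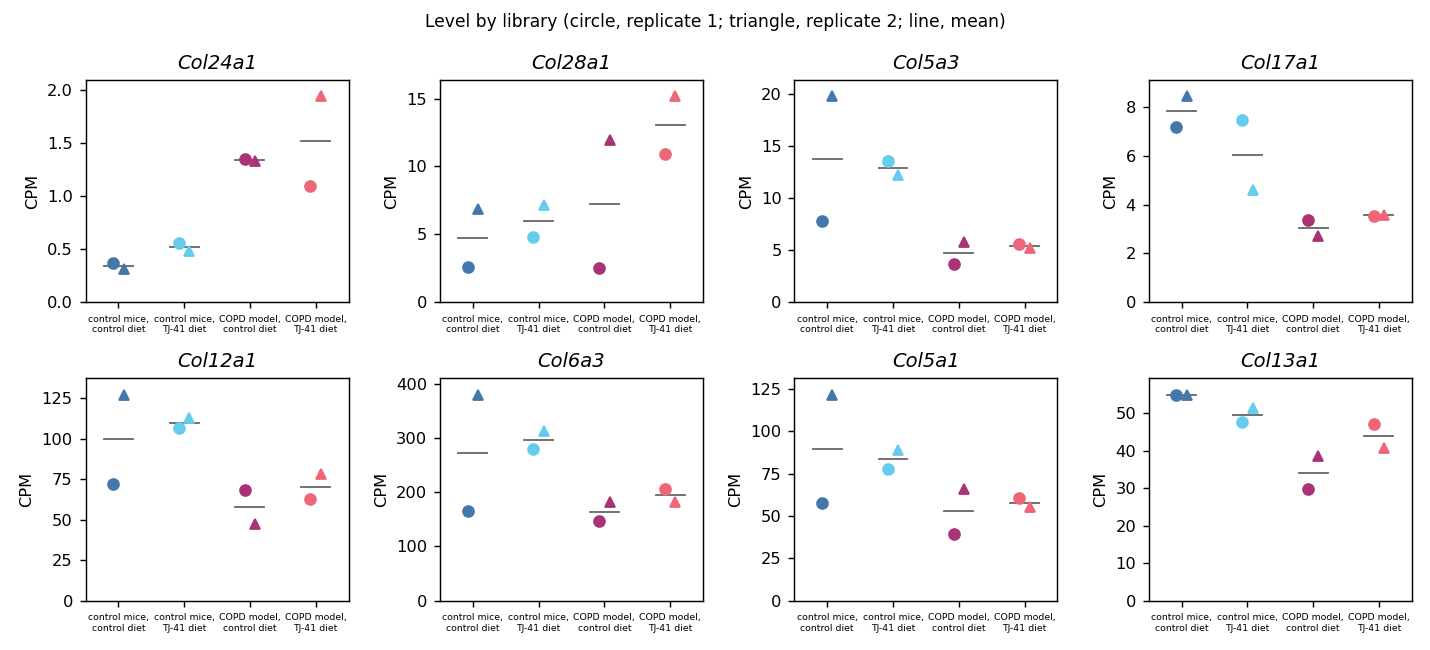
Level in CPM (y axis, from 0) of 8 collagen chains in the 4 groups (x axis), with circles for replicate 1, triangles for replicate 2 and lines for the mean. The libraries of the COPD mice model lie wholly above those of control mice for Col24a1 and wholly below for Col5a3, Col17a1 and Col13a1, and overlap for Col28a1, Col12a1, Col6a3 and Col5a1.

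Without overlap of the 4 libraries against 4, 3 of the 36 chains were lower in the COPD mice model (Col5a3, Col17a1 and Col13a1) and 1 was higher (Col24a1). Of all genes tested, 3.43% were lower and 3.35% higher in this sense. After the correction for length and GC, Col5a3 ranged from 8.38 to 17.6 CPM in control mice and 4.63 to 5.16 CPM in the COPD mice model, Col17a1 from 4.94 to 7.79 against 2.53 to 3.89, and Col24a1 from 0.292 to 0.548 against 1.06 to 1.92, so these 3 remained apart. Col13a1 remained apart as well, at 49.6 to 57.9 against 33.2 to 42.2 CPM. Col4a6 (28.4 to 32.9 against 24.2 to 27.7 CPM), Col12a1 (81.8 to 116 against 58.9 to 78.1 CPM) and Col20a1 (5.31 to 6.94 against 3.66 to 5.10 CPM), which overlapped before, were lower without overlap after it. Of all genes, 4.46% were lower and 4.37% higher without overlap after the correction.

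On the control diet alone, 0 chains were called (background 0.122%) and 8 had an unadjusted p under 0.05 (background 7.7%). Col24a1 had a log2 fold change of 1.97 (SE 0.48), Col5a3 -1.54 (SE 0.42), Col17a1 -1.36 (SE 0.31) and Col11a2 -0.92 (SE 0.31). Col12a1 had -0.78 (SE 0.28), Col13a1 -0.69 (SE 0.18), Col4a5 -0.60 (SE 0.19) and Col4a4 -0.46 (SE 0.165). On the TJ-41 diet, 0 chains were called (background 0.0779%) and 4 had an unadjusted p under 0.05 (background 6.56%), namely Col24a1 with 1.52 (SE 0.45), Col5a3 with -1.25 (SE 0.41), Col17a1 with -0.76 (SE 0.31) and Col12a1 with -0.64 (SE 0.28). These 4 chains were also among the 8 of the control diet. The other chains of those 8 had smaller differences on the TJ-41 diet. Col11a2 stood at 0.095 (SE 0.30), Col13a1 at -0.17 (SE 0.18), Col4a5 at -0.057 (SE 0.19) and Col4a4 at -0.16 (SE 0.16). The comparisons on each diet share no library. Across the 36 chains their log2 fold changes had a Pearson correlation of 0.747, and 25 chains had the same sign, 21 of them negative. Over all genes the correlation was 0.474, and 12621 of 20546 genes had the same sign. The 36 chains include Col24a1, the highest value on both diets, which reached the count filter through the COPD libraries. The correlation of the chains is therefore partly tied to that filter and was not formed without Col24a1. Chains are not independent replicates, since all of them were measured in the same libraries.

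Whether a chain was called depended on the test and on single libraries. With DESeq2, Col5a3 and Col17a1 were called on the control diet (background 0.832%), and Col5a3, Col17a1 and Col24a1 over both diets (background 1.19%). With every gene of at least 1 count kept, the same 3 were called over both diets (background 0.784%). With the correction for length and GC, Col5a3 was called with an edgeR adjusted p of 0.0307 (background 0.433%). On the TJ-41 diet DESeq2 called 0 chains (background 0.608%). When only the groups on the TJ-41 diet were fitted, Col5a3 and Col28a1 were called there (background 1.25%). Leaving out replicate 1 of the COPD control-diet group gave 3 calls on the control diet, Col12a1, Col17a1 and Col24a1 (background 6.28%), and 4 over both diets, Col5a3, Col17a1, Col24a1 and Col28a1 (background 4.08%). Leaving out replicate 2 of that group gave Col5a3 and Col24a1 over both diets (background 1.01%). Without any 1 of the other 6 libraries, the adjusted p in edgeR was 0.068 or more for Col5a3, Col17a1 and Col24a1 over both diets. Across all settings the log2 fold change ran from -1.65 to -0.98 for Col5a3, from -1.22 to -0.86 for Col17a1 and from 1.51 to 1.92 for Col24a1. It ran from -0.91 to -0.31 for Col6a3, from -0.86 to -0.33 for Col5a1 and from -0.885 to -0.47 for Col12a1. For Col28a1 it ran from 0.13 to 1.32 and for Col8a1 from 0.22 to 0.525.

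Ratios of chains within a library are free of its total and were compared per kilobase of exon. Exon length merges all annotated transcripts of a gene, so the size of a ratio depends on it. The difference of a log2 ratio between conditions does not. These 13 pairs were chosen after their values were seen, so the ratios are given without a test and without a background over all genes. Col5a3 stood at 0.121 and 0.144, 0.142 and 0.114, 0.061 and 0.0574, and 0.0616 and 0.0502 of Col5a2. Col5a1 stood at 0.719 and 0.707, 0.655 and 0.665, 0.522 and 0.526, and 0.532 and 0.426 of Col5a2. Both type V ratios were lower in all 4 libraries of the COPD mice model than in all 4 control libraries, by 1.18 and 0.46 on the log2 scale, and they still did not overlap after the correction for length and GC.

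Ratios among type I and type III chains differed less. Col1a1 was at 1.09 and 1.31, 1.10 and 1.12, 0.883 and 1.04, and 1.03 and 1.06 times Col1a2, with the higher values in control mice. These values rest on merged exon lengths of 6563 bases for Col1a1 and 12426 bases for Col1a2. In CPM, without division by length, Col1a2 was above Col1a1 in every library. A type I trimer usually holds 2 α1 chains for 1 α2 chain, a ratio that none of the 8 libraries reached at the RNA level, per kilobase or in CPM. Col3a1 was at 2.00 and 1.60, 1.76 and 1.80, 1.56 and 1.29, and 1.54 and 1.45 times Col1a1. Neither ratio overlapped between the conditions as measured, and both did after the correction for length and GC, when Col1a1 was 1.03 to 1.35 times Col1a2 in control mice and 0.889 to 1.05 times in the COPD mice model.

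In type IV collagen, Col4a1 was 1.22 to 1.35 times Col4a2 in the 8 libraries, the narrowest of the 13 ratios, although either chain alone varied 1.87-fold and 1.90-fold. Col4a3 was 1.20 to 1.53 times Col4a4. The specialized network varied more against the general one, with Col4a3 at 0.163 to 0.403 of Col4a1, the lowest value being replicate 2 of the COPD control-diet group. Col4a6 was 0.175 to 0.259 of Col4a5, whose start lies 1309 bases away in the opposite direction. From the lowest to the highest library, the ratios ranged 1.11-fold for Col4a1 to Col4a2, 1.28-fold for Col4a3 to Col4a4, 1.33-fold for Col4a5 to Col4a4 and 1.48-fold for Col4a6 to Col4a5.

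Type VI collagen showed a wider ratio. Col6a3 was at 0.292 and 0.446, 0.409 and 0.484, 0.324 and 0.206, and 0.293 and 0.253 of Col6a1, lower in the COPD mice model apart from a control library at 0.292. After the correction for length and GC the ranges were 0.319 to 0.435 in control mice and 0.254 to 0.303 in the COPD mice model, without overlap. Col6a1 was 2.25 to 2.51 times Col6a2 in control mice and 2.50 to 3.10 times in the COPD mice model. Col8a1 was 0.516 to 0.697 of Col8a2 in control mice and 0.647 to 0.860 in the COPD mice model.

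**Figure D5:**
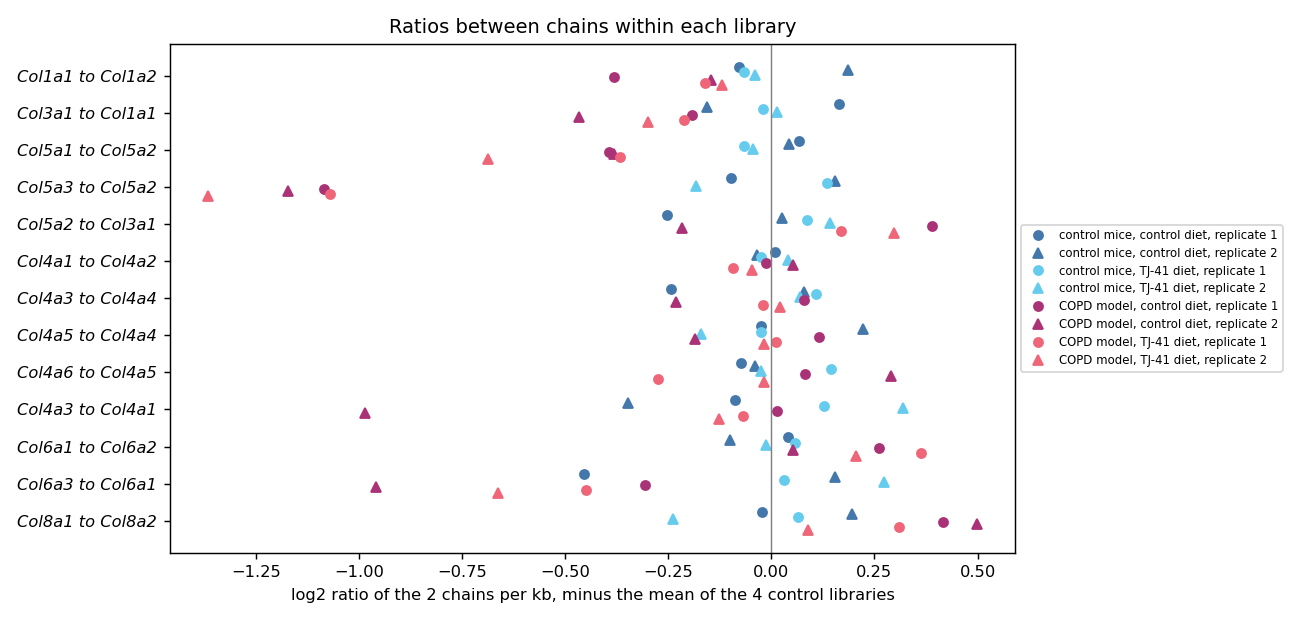
Log2 ratio of the levels per kb of 13 pairs of collagen chains (y axis) in each library, minus the mean of the 4 control libraries (x axis). Colors mark the groups, circles replicate 1 and triangles replicate 2; Col5a3 to Col5a2 and Col5a1 to Col5a2 lie to the left in all 4 libraries of the COPD mice model, and Col4a1 to Col4a2 stays within 1.22 and 1.35 in all 8.

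The TJ-41 diet was then compared with the control diet. In control mice no chain was called and 0 of 36 had an unadjusted p under 0.05 (background 0.0% called and 1.64% at the unadjusted p), and DESeq2 called none either (background 0.0487%), with a median log2 fold change of -0.04. Without replicate 1 of the PBS control-diet group this median was -0.36 and without replicate 2 of it 0.32. In the COPD mice model no chain was called (background 0.00487%) and 3 chains had an unadjusted p under 0.05 (background 4.1%), all of type IV, and DESeq2 called 0 (background 0.0584%). They were Col4a3 with a log2 fold change of 0.54 (SE 0.21), Col4a4 with 0.47 (SE 0.17) and Col4a5 with 0.50 (SE 0.19), each with an edgeR adjusted p of 0.991. In these 3 chains both TJ-41 libraries of the COPD mice model were above both on the control diet, as in 11 of the 36 chains and 14.1% of all genes, and 1 chain was below in this sense (background 14.9%). In the same comparison all 10 heart muscle markers were lower at an unadjusted p under 0.05, with sums of 577 and 738 CPM on the control diet and 352 and 283 CPM on TJ-41, and 4 of 8 mesothelium markers were higher, with sums of 214 and 424 CPM and of 352 and 457 CPM. The part of these cell types in the type IV values was not tested.

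Over control and COPD mice together, 0 chains were called (background 0.0%) and 2 had an unadjusted p under 0.05 (background 2.48%), Col4a3 with a log2 fold change of 0.43 (SE 0.15) and Col4a4 with 0.32 (SE 0.12), both with an edgeR adjusted p of 0.973. DESeq2 called 0 (background 0.0243%). The largest positive values were those of Col28a1 (0.59, SE 0.46), Col4a3, Col24a1 (0.40, SE 0.33), Col4a4 and Col26a1 (0.31, SE 0.42). The largest negative values were those of Col6a4 (-0.49, SE 0.54), Col9a3 (-0.23, SE 0.37), Col15a1 (-0.19, SE 0.30), Col1a1 (-0.18, SE 0.34) and Col8a1 (-0.14, SE 0.18).

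Several of those chains were rare. Col26a1 had 0.418 and 0.622, 0.563 and 0.378, 0.521 and 0.205, and 0.573 and 0.664 CPM. Col6a4, a type VI chain, had 0.418 and 1.04, 0.614 and 0.378, 0.990 and 0.205, and 0.365 and 0.511 CPM. Col9a3 had 0.470 and 1.14, 0.870 and 0.594, 0.729 and 0.820, and 0.625 and 0.613 CPM, and its exons overlap those of Tcfl5 on the opposite strand over 234 bases. At 4 to 22 counts per library no diet difference was detectable in these 3 chains. Col15a1, a chain that links basement membranes to fibrils, was at 13.4 and 26.8, 19.03 and 17.2, 11.2 and 28.4, and 18.3 and 15.3 CPM, with the TJ-41 values inside the range of the control diet.

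The difference between the diet effects of COPD and control mice was tested directly. No chain was called by edgeR (background 0.0%) or DESeq2 (background 0.0827%), 1 of 36 had an unadjusted p under 0.05 (Col11a2, background 3.27%), and the median over the 36 was 0.17. With replicate 1 or replicate 2 of the PBS control-diet group left out, the median was 0.50 or -0.26, and with replicate 1 or replicate 2 of the COPD control-diet group left out it was -0.0375 or 0.49. For Col4a3 the difference of the log2 fold changes was 0.22 (SE 0.29) for Col4a4 0.30 (SE 0.23) and for Col4a5 0.54 (SE 0.27, unadjusted p = 0.0732 and adjusted p = 0.999 in edgeR), so the diet effects were not shown to differ.

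Genes that act on collagen were counted from lists written from general knowledge, with no member called in the COPD mice model over both diets (background 0.443%). For the counts at an unadjusted p under 0.05 that follow, the background over all genes was 6.18% higher and 4.21% lower. Of 20 genes for chain modification and folding in the endoplasmic reticulum, 4 were lower and 0 higher at an unadjusted p under 0.05, with a median log2 fold change of 0.06. Plod2, which hydroxylates lysines of the telopeptides for cross-linking, ranged from 84.1 to 125 CPM in control mice and 60.3 to 67.6 CPM in the COPD mice model without overlap, with a log2 fold change of -0.58 (SE 0.12, edgeR adjusted p = 0.104). Creb3l1, a transcription factor of secretory cells, ranged from 24.7 to 37.0 against 15.1 to 20.7 CPM, with -0.68 (SE 0.16, edgeR adjusted p = 0.139). P4ha1, a prolyl hydroxylase subunit, ranged from 93.0 to 135 against 70.7 to 91.7 CPM, with -0.39 (SE 0.15, edgeR adjusted p = 0.425).

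Genes of collagen cleavage and uptake were counted next. Of the 10 tested, 3 were higher and 0 lower at an unadjusted p under 0.05, against 6.18% and 4.21% of all genes, with 9 of the 10 positive and a median of 0.17. Ctsk, a collagen-degrading cysteine protease, ranged from 21.7 to 33.9 CPM in control mice and 36.1 to 77.2 CPM in the COPD mice model, with a log2 fold change of 1.10 (SE 0.24, edgeR adjusted p = 0.118). Mmp2, the gelatinase that also acts on type IV collagen, had 0.74 (SE 0.26), and Timp3, an inhibitor of such proteases, had 0.31 (SE 0.13). Macrophages can express both proteases. Macrophage markers differed in both directions, and their part in these values was not tested.

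The remaining lists had 1 to 3 genes at an unadjusted p under 0.05, where 10.4% of all genes passed. In most of these lists the share was near that background, and the genes are named by rule. Of 13 genes for procollagen processing and cross-linking 1 was lower (Pcolce2, an enhancer of procollagen C-proteinase, -0.32, SE 0.12), with Lox at -0.29 (SE 0.16) and Loxl4 at 0.33 (SE 0.20). Of 13 fibril-binding proteoglycans and adaptors 1 was higher (Fmod, fibromodulin, 1.02, SE 0.36) and 2 were lower (Aspn, asporin, -0.54, SE 0.18, and Dpt, dermatopontin, -0.43, SE 0.16). Of 10 collagen receptors 1 was higher (Ddr1, a receptor kinase of epithelial cells, 0.52, SE 0.18), with the integrin chains Itga10 at -0.43 (SE 0.24) and Itga2 at -0.26 (SE 0.19).

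For the 16 partners of type IV collagen in basement membranes, 1 was lower (Nid2, nidogen 2, -0.47, SE 0.17), with the laminin chains Lama4 at -0.29 (SE 0.16) and Lama3 at -0.32 (SE 0.18), and 11 of 16 were negative with a median of -0.20. Of 17 genes of the TGF-beta pathway and its matrix targets 1 was higher (Ltbp2, a microfibril protein, 1.21, SE 0.33, edgeR adjusted p = 0.196) and 1 was lower (Smad3, which carries the signal to the nucleus, -0.31, SE 0.10), with Tgfbi at 0.24 (SE 0.14). For the TJ-41 diet over control and COPD mice, none of the genes in these 7 lists had an unadjusted p under 0.05 (background 2.48%). In the COPD mice model alone, 2 of the 16 partners and 1 of the 10 genes of cleavage and uptake were higher at that threshold (background 4.1% in either direction). None was called, and the other lists had no gene at that threshold. Of the 16 partners, 13 were positive and 3 negative, with a median of 0.27.

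Markers of fibroblasts, the main source of fibrillar chains, gave 3 higher and 2 lower of 12 at an unadjusted p under 0.05 (background 6.18% and 4.21%). Pdgfra, a marker of alveolar fibroblasts, had -0.54 (SE 0.14), ranging from 398 to 539 CPM in control mice and 288 to 423 CPM in the COPD mice model, whereas Inmt (0.49, SE 0.17) and Tcf21 (0.33, SE 0.12) were positive. The part of fibroblast number in the collagen levels was not tested.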

How the data were processed

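Lung RNA of 8 libraries was extracted with a column kit, and the submitters' processing notes name mm10, HISAT2 and edgeR, while the study's methods name CLC Genomics Workbench and edgeR. The authors deposited raw counts per Ensembl gene (52636 identifiers per library), without normalization. The counting program, annotation release, strand setting and handling of reads with several matches are not given in the sources used here, so reads of overlapping genes cannot be assigned with certainty (Col9a3 and Tcfl5, Col4a1 and Col4a2, Col20a1 and BX649560.1). Symbols, exon lengths and GC came from GENCODE M21 (GRCm38), in which 52489 identifiers were found. Exon length was the merged length of all annotated exons of a gene, and GC was that of its longest transcript.

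Genes were kept by filterByExpr (minimum count 10, total 15), which left 20546 genes and 36 of 44 collagen chains. TMM-scaled counts of all 8 libraries were fitted with group means in edgeR 4.0.16 (R 4.3.3) and compared by the quasi-likelihood test with 4 residual degrees of freedom and Benjamini-Hochberg adjustment over all genes. Calls required an adjusted p (false discovery rate) under 0.05 with log2 fold changes beyond 1 in size. The SE was the log2 fold change divided by the square root of F. Other settings were DESeq2 1.42.0, scaling by library size alone or by relative log expression, no filter beyond 1 count, a replicate block, a loess correction for length and GC (span 0.5), each library left out, only the groups compared, and the false discovery rate alone. Replicates of a group were not copies of each other, since they differed by 11.9 to 88.1 times the counting variance. Libraries of different groups were not compared in this way. Zero floors use 3 counts and cover counting error only. Depths of 18767295 to 20888042 counts limit chains under about 1 CPM.

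Chains named with all values were the 10 highest per kilobase, the 5 largest positive and 5 largest negative differences in the COPD and the TJ-41 comparison over both arms, and their trimer partners. From each pathway list the called genes and the 3 smallest p-values were named, and cell markers are given mostly as sums. All other chains, and the pairs whose ratios were formed, were named after their values were seen. The members and gene lists were chosen with earlier results of these data known. The steps were tested on simulated data.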

Additional observations from a re-analysis of the deposited data

How the results depend on the processing

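Most results kept their direction and their side of the threshold. In 193 comparisons of a collagen count or median with an alternative the value changed little, and in 18 it moved. Medians were judged against the spread of a library's collagen median within groups, 0.284 on the log2 scale. This spread is larger in size than the median of -0.20 over both diets. A median could therefore count as little changed even where its sign did not hold. The number of collagen chains called, 0 as reported in each comparison, was 2 with DESeq2 on the control diet, 2 when only the groups on the TJ-41 diet were fitted, and over both diets 3 with DESeq2, 3 with all genes of at least 1 count and 1 with the length and GC correction. Leaving out 1 library gave 0 to 3 calls on the control diet and 0 to 4 over both diets. Residual degrees of freedom are fewer when only the groups compared are fitted, and a library left alone in its group is assumed to vary like the others. The cause of the other changes was not tested.

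Leaving out 1 library moved the median log2 fold change of the chains between -0.58 and 0.15 for the COPD comparison on the control diet. The range was -0.36 to 0.32 for TJ-41 in PBS mice and -0.0445 to 0.49 for TJ-41 in COPD mice. For the difference of these diet effects it was -0.26 to 0.50. Single chains without a call changed sign. With the length and GC correction, Col8a2 in the COPD comparison was -0.0422 and the log2 ratio of Col4a1 to Col4a2 0.011. With 1 library left out, the COPD comparison ranged from -0.20 to 0.49 for Col1a2 and from -0.0761 to 0.19 for Col8a2. The TJ-41 comparison ranged from -0.46 to 0.21 for Col15a1, from -0.48 to 0.33 for Col1a1, from -0.86 to 0.26 for Col6a4, from -0.29 to 0.0224 for Col8a1 and from -0.48 to 0.16 for Col9a3. The log2 ratios (COPD minus control) ranged from -0.12 to 0.0254 for Col4a3 to Col4a4, from -0.0768 to 0.0536 for Col4a5 to Col4a4 and from -0.0708 to 0.12 for Col4a6 to Col4a5.

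Libraries with the same replicate number did not deviate together, with correlations of -0.234 to 0.108 between groups. With the numbers as a replicate block, 0 chains were called in each comparison, and over both diets the median of the chains was -0.21 and the edgeR adjusted p of Col5a3 0.115. With 2 libraries a group, depth and replicate spread leave differences in rare chains undetected.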
